A study of Homo sapiens with 8 samples.

Results

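The genes described here are the 8 ATP-binding cassette (ABC) transporters best known for exporting drugs and their conjugates, ABCB1, ABCC1, ABCC2, ABCC3, ABCC4, ABCC5, ABCC10 and ABCG2. They were taken by symbol from the 38010 gene IDs of the count table, and all 8 were found and passed the filter on low counts. Expression was compared in confluent cultures of Ea.hy926, a human line that arose from the fusion of umbilical vein endothelium with the lung carcinoma line A549. The Rho0 line (deficient in oxidative phosphorylation, 4 libraries) was set against the parental Eahy line (4 libraries), both untreated as far as the labels say. Each group is a single line, so a difference that arose between the lines for another reason and an effect of lost respiration cannot be told apart. The sources used here do not give how the Rho0 line was made or whether it is a single clone. Although the labels call the libraries biological replicates, they do not say how the cultures were kept apart, so the p-values reflect only how these libraries varied.

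ABC exporters use ATP to move compounds out of the cell, and several together give cancer cells resistance to many drugs. ABCB1 and ABCG2 act mostly on unmodified drugs, whereas the ABCC exporters act widely on conjugates with glutathione, glucuronate or sulfate. In endothelium, ABCB1 and ABCG2 are best known from the barrier of brain capillaries, where they return drugs to the blood.

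Of the 8 exporters, ABCB1, ABCC1, ABCC4 and ABCC5 were higher in Rho0 and ABCC2 was lower. ABCC3, ABCC10 and ABCG2 did not pass the test (edgeR quasi-likelihood test, adjusted p of 0.05 over 15184 genes tested). The 4 higher members stand beside 29% of all genes called higher, and the 1 lower member beside 25.4% called lower. With so many genes called in both directions, the counts say little about the 8 as a group. Their median log2 fold change was 0.23, against 0.05 over all genes tested.

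Libraries held 11721708 to 37203507 estimated counts, the shallowest being Rho0 replicate 2. The lowest member count was 71.9, for ABCC2 in that library. Transcripts of mitochondrial DNA made up 0.00296% to 0.149% of the Rho0 libraries, with replicate 2 highest, and 16.05% to 21.4% of the Eahy libraries. The endothelial markers were well expressed, all 10 tested and with summed levels of 5333 to 5768 CPM (counts scaled to library size with TMM factors, edgeR's CPM unit) in Rho0 and 5325 to 5800.3 CPM in Eahy. Of these, 4 were higher and 3 lower, among them KDR (log2 fold change 3.24), PECAM1 (0.96), CDH5 (-0.73) and ESAM (-0.64). The 6 epithelial markers summed to 1294 to 2077 CPM in Rho0 and 2605 to 2877 CPM in Eahy, with KRT8 and KRT18 lower and EPCAM, under 1 CPM in both lines, higher. Leukocyte markers summed to 5.27 to 6.19 CPM in Rho0 and 10.5 to 12.6 CPM in Eahy, and CD3E had no count. That difference lay in LCP1, lower at 4.66 CPM in Rho0 against 10.7 CPM in Eahy, whereas PTPRC was called higher, at 1.02 CPM in Rho0 against 0.656 CPM in Eahy (edgeR adjusted p = 0.0385). Its call was lost without Rho0 replicate 2, 3 or 4 or without Eahy replicate 1, 2 or 4 (adjusted p from 0.0528 to 0.128). The PTPRC call was also lost by DESeq2 (adjusted p = 0.134). In edgeR it was lost with replicate number as a block (adjusted p = 0.0626) and with no filter on low counts (0.0751). Fibroblast markers summed to 1.33 to 2.14 CPM in Rho0 and 1.47 to 2.42 CPM in Eahy. The hepatocyte markers had no count in Rho0 and summed to at most 0.155 CPM in Eahy. The part of these marker differences in the transporter results was not tested.

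ABCB1 encodes P-glycoprotein, the exporter of anthracyclines, taxanes and vinca alkaloids. The gene has 28 exons on the minus strand of chromosome 7, from 87503633 to 87713323 (GRCh38, GENCODE 29, as for all gene positions here). Its level was 9.48, 11.97, 13.3 and 14.95 CPM in Rho0 replicates 1 to 4, against 5.18, 4.05, 3.91 and 4.14 CPM in Eahy replicates 1 to 4. The lines did not overlap, and the lowest Rho0 library lay well above the highest Eahy library. ABCB1 averaged 12.4 ± 2.32 CPM in Rho0 and 4.32 ± 0.581 CPM in Eahy (SD, n = 4 each), 2.88-fold higher with a 95% interval of 2.26 to 3.66. The log2 fold change was 1.53 (SE 0.16, edgeR adjusted p = 1.6e-05), the largest in size among the 8.

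**Figure D1:**
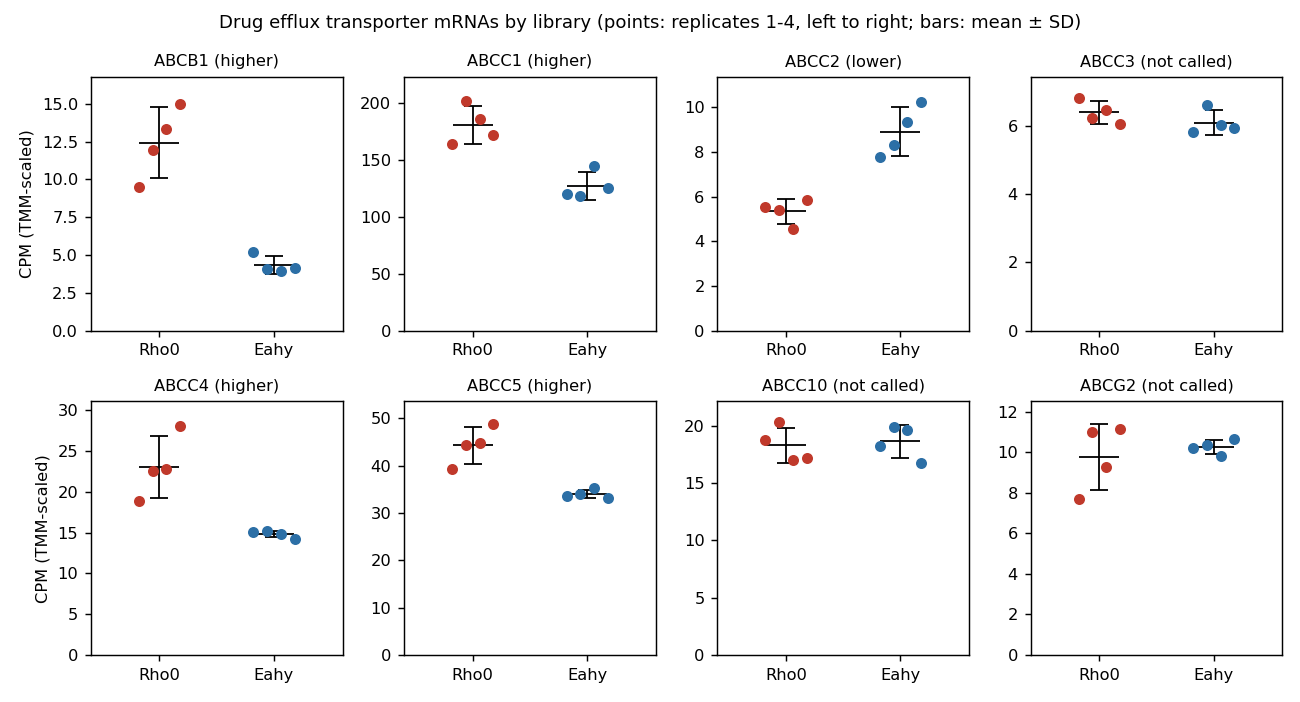
Level of each of the 8 transporter mRNAs in CPM (vertical axes from 0) in the 4 Rho0 libraries, left, and the 4 Eahy libraries, right, with a point for each replicate in number order and bars for the mean ± SD. The lines do not overlap for ABCB1, ABCC1, ABCC4 and ABCC5, which are higher in Rho0, and for ABCC2, which is lower.

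ABCC1 encodes MRP1, an exporter of glutathione conjugates, leukotriene C4 and oxidised glutathione, on chromosome 16 from 15949577 to 16143074 (plus strand). It was by far the most abundant of the 8. Levels were 164, 202, 186 and 171 CPM in Rho0 replicates 1 to 4, against 120.1, 118, 145 and 125 CPM in Eahy replicates 1 to 4. The lines did not overlap, although Eahy replicate 3 came close to Rho0 replicate 1. ABCC1 averaged 181 ± 16.8 CPM in Rho0 and 127 ± 12.2 CPM in Eahy (SD, n = 4 each), 1.42-fold higher (95% interval 1.24 to 1.63; a log2 change of 0.51, SE 0.09, edgeR adjusted p = 0.000786).

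ABCC4 and ABCC5, which encode MRP4 and MRP5, export cyclic nucleotides and nucleotide-analogue drugs, and both were higher in Rho0. ABCC4 lies on chromosome 13 from 95019829 to 95301475 (minus strand) and had 18.8, 22.6, 22.8 and 28.1 CPM in Rho0 replicates 1 to 4, against 15.04, 15.2, 14.8 and 14.3 CPM in Eahy replicates 1 to 4. Its average was 23.1 ± 3.80 CPM in Rho0 and 14.8 ± 0.414 CPM in Eahy (SD, n = 4 each), 1.56-fold higher (95% interval 1.31 to 1.86; a log2 change of 0.64, SE 0.12, edgeR adjusted p = 0.000831). The lines did not overlap, and the Rho0 libraries were spread much wider than the Eahy libraries. ABCC5 lies on chromosome 3 from 183919934 to 184018015 (minus strand) and had 39.3, 44.4, 44.9 and 48.8 CPM in Rho0 replicates 1 to 4, against 33.5, 34.1, 35.2 and 33.3 CPM in Eahy replicates 1 to 4. It averaged 44.4 ± 3.89 CPM in Rho0 and 34.01 ± 0.851 CPM in Eahy (SD, n = 4 each), 1.30-fold higher (95% interval 1.16 to 1.47; a log2 change of 0.38, SE 0.08, edgeR adjusted p = 0.00181). Again the lines did not overlap. In ABCB1, ABCC4 and ABCC5, and also in ABCG2, which was not called, Rho0 replicate 1 was the lowest and Rho0 replicate 4 the highest Rho0 library.

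ABCC2 was the member that was lower in Rho0. It encodes MRP2, an exporter of the apical membrane that carries bilirubin glucuronides and other conjugates into bile, on chromosome 10 from 99782640 to 99852594 (plus strand). Levels were 5.52, 5.42, 4.54 and 5.86 CPM in Rho0 replicates 1 to 4, against 7.75, 8.30, 9.32 and 10.2 CPM in Eahy replicates 1 to 4. Every Rho0 library lay below every Eahy library. ABCC2 averaged 5.34 ± 0.561 CPM in Rho0 and 8.90 ± 1.10 CPM in Eahy (SD, n = 4 each), a fold change of 0.602 (95% interval 0.498 to 0.728; a log2 change of -0.73, SE 0.12, edgeR adjusted p = 0.000552).

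ABCC3, ABCC10 and ABCG2 were not called, and for each the lines overlapped. ABCC3 encodes MRP3, a basolateral exporter of glucuronides (chromosome 17, 50634777 to 50692252, plus strand). It had 6.84, 6.25, 6.47 and 6.08 CPM in Rho0 replicates 1 to 4, against 5.82, 6.63, 6.03 and 5.95 CPM in Eahy replicates 1 to 4. The 95% interval of its fold change was 0.903 to 1.22 (edgeR adjusted p = 0.575). ABCC10 encodes MRP7, which transports taxanes among other drugs (chromosome 6, 43427366 to 43450430, plus strand). It had 18.8, 20.3, 17.1 and 17.2 CPM in Rho0 replicates 1 to 4, against 18.2, 19.9, 19.7 and 16.8 CPM in Eahy replicates 1 to 4. Its fold change had an interval of 0.852 to 1.13 (edgeR adjusted p = 0.804). ABCG2 encodes BCRP, which works as a dimer and exports topotecan, mitoxantrone, porphyrins and urate (chromosome 4, 88090264 to 88231322, minus strand). It had 7.71, 10.99, 9.26 and 11.1 CPM in Rho0 replicates 1 to 4, against 10.2, 10.4, 9.84 and 10.6 CPM in Eahy replicates 1 to 4. The Rho0 libraries lay on both sides of the narrow Eahy range, with a coefficient of variation of 16.6% in Rho0 and 3.26% in Eahy, and the fold change had an interval of 0.785 to 1.15 (edgeR adjusted p = 0.624).

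The direction of some of these results depended on how the libraries were scaled. TMM factors were 1.11 to 1.19 in Rho0 and 0.801 to 0.921 in Eahy. With library size alone, in which the mitochondrial transcripts of Eahy count towards its totals, the log2 fold change over all genes had a median of 0.44 instead of 0.05, a shift of 0.39. Genes called higher in Rho0 then numbered 8572 (56.5%) and genes called lower 1540 (10.1%), against 4399 and 3858 with TMM. ABCC3 (0.46, edgeR adjusted p = 0.00285) and ABCC10 (0.36, edgeR adjusted p = 0.00377) were then called higher, making 6 members higher and 1 lower. The log2 fold change of ABCG2 became 0.32 (edgeR adjusted p = 0.0755), and that of ABCC2 became -0.34 (edgeR adjusted p = 0.0466). With the library size of nuclear genes alone, a setting chosen after seeing the data, the median over all genes was 0.15. A change of scaling moves all genes by about the same amount. Values relative to the median of all genes therefore hardly change, which is no separate check. ABCB1 lay 1.48 above that median with library size alone and 1.47 above it with TMM. ABCC2 lay at -0.78 with both, and ABCC3 lay 0.02 above it with both.

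**Figure D2:**
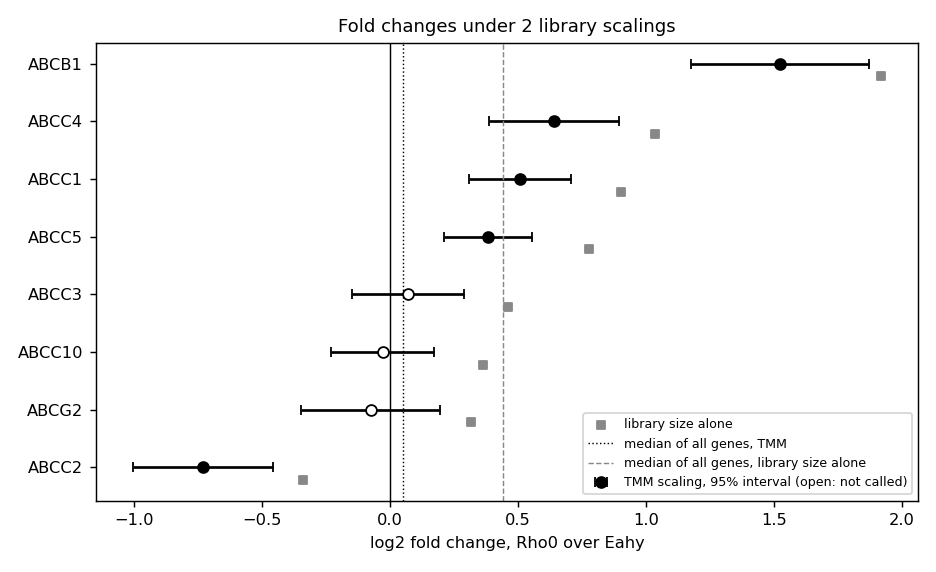
Log2 fold change (Rho0 over Eahy, horizontal axis) of the 8 transporters with TMM scaling (circles with 95% intervals, open where not called) and with library size alone (squares), beside the median of all genes under each scaling. All 8 squares lie to the right of their circles, as does the median of all genes, at 0.44 with library size alone and 0.05 with TMM.

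Levels of different genes were compared per kilobase of coding length, in CPM per kb. Untranslated parts of the mRNA also give counts but were left out of that length, so the order of genes depends on this choice. ABCG2 has the shortest coding length, 1965 bases, against 3840 to 4635 in the other members. In Rho0 the order was ABCC1 (39.3), ABCC5 (10.3), ABCC4 (5.81), ABCG2 (4.98), ABCC10 (4.10), ABCB1 (3.24), ABCC3 (1.40) and ABCC2 (1.15 CPM per kb). The ranges of ABCC4 and ABCG2, of ABCG2 and ABCC10, and of ABCC10 and ABCB1 overlapped across the Rho0 libraries. Within libraries ABCC4 was nonetheless above ABCG2 in 4 of 4 Rho0 libraries, whereas ABCG2 was above ABCC10, and ABCC10 above ABCB1, in 3 of 4. In Eahy the order was ABCC1 (27.7), ABCC5 (7.89), ABCG2 (5.23), ABCC10 (4.17), ABCC4 (3.73), ABCC2 (1.92), ABCC3 (1.33) and ABCB1 (1.13 CPM per kb), with overlapping ranges for ABCC10 and ABCC4 and for ABCC3 and ABCB1. Within libraries ABCC10 was above ABCC4 in 4 of 4 Eahy libraries and ABCC3 above ABCB1 in 3 of 4. ABCB1 thus had the lowest mean of the 8 in Eahy and stood above ABCC3 and ABCC2 in every Rho0 library. ABCC2 stood above ABCC3 in every Eahy library and below it in every Rho0 library.

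**Figure D3:**
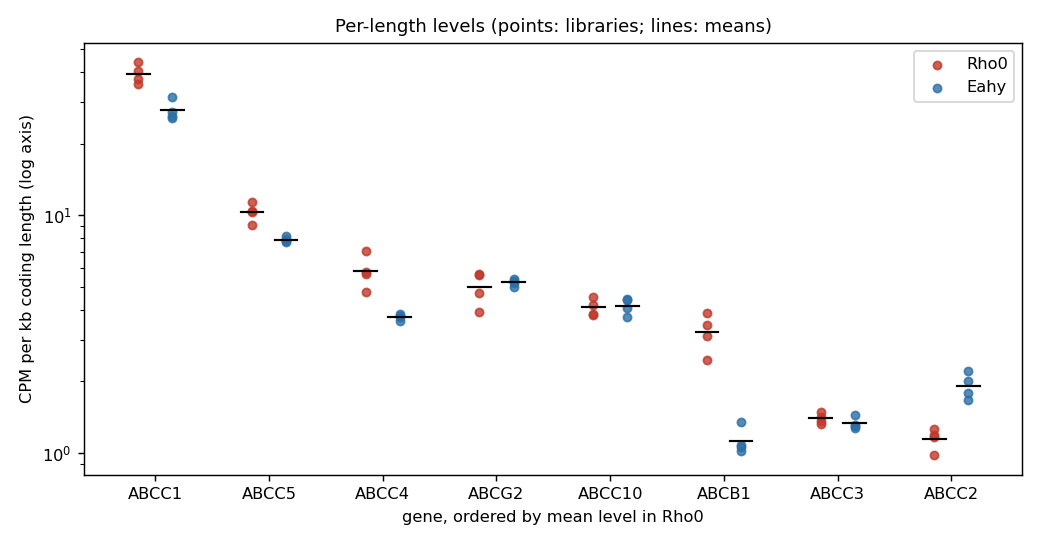
Level of each transporter per kilobase of coding length (log axis, CPM per kb) in Rho0 (red, left of each pair) and Eahy (blue), with points for libraries and lines for means, ordered by the mean in Rho0. ABCC1 lies far above the rest in both lines, and ABCB1 and ABCC2 change places at the low end.

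The make-up of the 8 as a pool differed in a way that no library scaling can alter, since scaling cancels in a share. The summed level was 70.3 ± 5.42 CPM per kb in Rho0 and 53.0 ± 2.78 CPM per kb in Eahy (SD, n = 4 each). Of that sum ABCB1 made up 4.59 ± 0.696% in Rho0 and 2.13 ± 0.357% in Eahy. ABCC2 made up 1.65 ± 0.230% in Rho0 and 3.62 ± 0.417% in Eahy. ABCC1 made up 56.0 ± 2.67% in Rho0 and 52.0 ± 2.25% in Eahy, with ranges that overlapped, as did those of ABCC3 and ABCC5. ABCG2 made up 7.05% in Rho0 and 9.88% in Eahy, and ABCC10 5.85% and 7.87%, without overlap, although neither gene was called. ABCC4 made up 8.25% in Rho0 and 7.05% in Eahy, also without overlap. A share also moves when other members of the pool change. The per-length ratio of ABCB1 to ABCC2 was 2.84 ± 0.625 in Rho0, from 2.07 to 3.54, and 0.598 ± 0.146 in Eahy, from 0.488 to 0.807. These shares and ratios are descriptions, with no test, and rest on the same coding lengths.

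Promoter sequences are shown for the called members that had an entry among the RefSeq promoters (GRCh38.p14, 250 bases before to 50 after a gene's start). In all, 6 of the 8 members matched, with 12 windows; ABCC1 and ABCC3 are named only. Because the counts are per gene, they do not tell which start site was used, and for ABCB1 the downstream of its 2 windows is shown. Capitals mark matches to 7 motifs searched on both strands, which do not overlap each other in these windows: CCAAT, the GC box GGGCGG, the antioxidant response core TGACNNNGC, the hypoxia response core ACGTG, the xenobiotic response core GCGTG, the TATA box TATAAA and the C/EBP-ATF element TGATGNAAT. All are written from 5′ to 3′ on the gene's strand.

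ABCB1, chr7:87600835-87601134, minus strand: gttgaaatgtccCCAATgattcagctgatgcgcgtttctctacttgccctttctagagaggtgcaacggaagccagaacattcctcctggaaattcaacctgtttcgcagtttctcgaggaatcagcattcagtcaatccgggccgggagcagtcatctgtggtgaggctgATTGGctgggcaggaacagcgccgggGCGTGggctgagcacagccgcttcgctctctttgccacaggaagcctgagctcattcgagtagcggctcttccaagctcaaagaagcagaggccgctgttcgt
ABCC4, chr13:95301402-95301701, minus strand: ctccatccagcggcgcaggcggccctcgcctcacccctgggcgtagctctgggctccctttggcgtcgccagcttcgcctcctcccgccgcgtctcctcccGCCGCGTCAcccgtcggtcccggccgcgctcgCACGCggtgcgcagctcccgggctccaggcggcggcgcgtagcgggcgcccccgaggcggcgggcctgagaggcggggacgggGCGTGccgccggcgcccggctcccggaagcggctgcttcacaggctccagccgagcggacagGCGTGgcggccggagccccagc
ABCC5, chr3:184017835-184018134, minus strand: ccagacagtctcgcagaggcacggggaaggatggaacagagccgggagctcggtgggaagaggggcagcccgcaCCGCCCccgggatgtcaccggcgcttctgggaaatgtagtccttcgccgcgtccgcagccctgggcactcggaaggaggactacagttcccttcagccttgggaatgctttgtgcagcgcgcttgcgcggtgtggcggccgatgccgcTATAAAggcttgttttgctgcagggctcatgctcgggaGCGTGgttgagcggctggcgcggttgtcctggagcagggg
ABCC2, chr10:99782390-99782689, plus strand: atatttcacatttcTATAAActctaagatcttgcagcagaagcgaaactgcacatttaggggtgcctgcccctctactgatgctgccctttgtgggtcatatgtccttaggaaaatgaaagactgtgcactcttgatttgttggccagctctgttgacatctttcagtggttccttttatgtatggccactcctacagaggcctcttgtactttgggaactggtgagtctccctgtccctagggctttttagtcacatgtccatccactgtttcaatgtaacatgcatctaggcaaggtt

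The ABCB1 window shown (55.3% GC) holds CCAAT on either strand at bases 13 and 172 and GCGTG at base 198. The other ABCB1 window, upstream, has a GC content of 37.7% and holds no match to the 7 motifs. Of 35116 promoters, 34.6% held CCAAT and 36.5% held GCGTG. The ABCC4 window, with a GC content of 79.7%, holds the antioxidant response core at base 102, which 13.3% of promoters held, and the xenobiotic core at bases 134, 217 and 279. The ABCC5 window (65.7% GC) holds the GC box, found in 45.0% of promoters, the TATA box, found in 11.5%, and the xenobiotic core. Its TATAAA match begins at base 223, -28 from the start site. The window of ABCC2, the lower member, has a GC content of 45.0% and among the 7 motifs holds only the letters TATAAA. That match begins at base 15, -236 from the start site, unlike the position in ABCC5. The median GC content of all promoters was 58.7%, and ACGTG and TGATGNAAT, held by 21.4% and 0.991% of promoters, were in none of the 4 windows. These matches are descriptions of the letters in each window.

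Overlapping genes bear on what the counts can mean, since whether the counting used strand is not stated. RUNDC3B lies on the opposite strand and shares 85776 bases with ABCB1, none of them exonic in both. It had 2.88 ± 0.717 CPM in Rho0 and 0.110 ± 0.083 CPM in Eahy (SD, n = 4 each; a log2 change of 4.603, SE 0.43, edgeR adjusted p = 7.7e-06). The part of RUNDC3B in the ABCB1 result was not tested. ABCB4, the phospholipid exporter beside ABCB1 and its close paralog, had 0.611 ± 0.236 CPM in Rho0 and 0.587 ± 0.219 CPM in Eahy (a log2 change of 0.03, SE 0.37, edgeR adjusted p = 0.957). Within 500 kb of ABCB1, a window chosen after the values were seen, 10 genes were tested. Of these, 4 (DMTF1, CROT, RUNDC3B and ADAM22) were higher, 2 (ELAPOR2 and SRI) were lower and 4 were not called. Beside 29% of all genes called higher and 25.4% called lower, such small counts say little about the region. DLK2, which shares 79 exonic bases with ABCC10, had 1.88 ± 0.254 CPM in Rho0 and 2.17 ± 0.146 CPM in Eahy (edgeR adjusted p = 0.309).

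The patterns most like those of ABCB1 and ABCC2 were looked for among 10398 genes, by Pearson's r of log2 CPM over the 8 libraries. Those most like ABCB1 were MCTP1 (r = 0.998), ARMCX4 (0.997) and FAM13A (0.996). Those most like ABCC2 were BRD9 (0.990), MAGEA3 (0.988) and TBC1D8 (0.986). The libraries fall into the 2 lines, so each r mostly carries the difference between them.

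The other ABC genes moved in both directions. Of 38 listed, 26 were tested, 8 were higher, 5 were lower and 13 were not called, with a median log2 fold change of 0.12 against 0.05 for all genes tested. In subfamily A, which includes lipid transporters, 4 of 10 tested were higher and 0 lower, beside 29% and 25.4% of all genes (edgeR; 9 and 0 with library size alone; 0 lower at an unadjusted p of 0.05, by DESeq2 or by limma). The higher count is near the share over all genes, against which the counts of all other lists are also to be read. ABCA2, of the lysosomal membrane, averaged 139 ± 9.42 CPM in Rho0 and 69.5 ± 2.37 CPM in Eahy (SD, n = 4 each; a log2 change of 1.004, SE 0.07, edgeR adjusted p = 7.6e-07). ABCA9 (0.51), ABCA5 (0.50) and ABCA3 (0.46), the surfactant lipid transporter of lung, had smaller log2 fold changes. In subfamily B beyond ABCB1, 2 of 7 tested were higher and 2 lower. TAP1, which moves peptides into the endoplasmic reticulum for antigen presentation, had 2.39 ± 0.284 CPM in Rho0 and 5.02 ± 0.236 CPM in Eahy (a log2 change of -1.09, SE 0.13, edgeR adjusted p = 4.5e-05). ABCB9, of the lysosome, had a log2 fold change of -0.32, and ABCB6, a porphyrin transporter, had 0.61. ABCB11, the bile salt export pump, was also higher, at under 1 CPM in both lines.

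In subfamily C outside the 8, ABCC6 was higher, at 2.83 ± 0.631 CPM in Rho0 and 1.56 ± 0.364 CPM in Eahy with ranges that overlapped (a log2 change of 0.84, SE 0.22, edgeR adjusted p = 0.00861); it has pseudogene copies, so its counts are uncertain. ABCD3, a peroxisomal fatty acid transporter, was higher, with 11.6 ± 1.599 CPM in Rho0 and 6.90 ± 0.811 CPM in Eahy (a log2 change of 0.75, SE 0.13, edgeR adjusted p = 0.00054). ABCF2 (-0.81) and the ribosome recycling factor ABCE1 (-0.37), ABC proteins without membrane domains, were lower, 2 of 4 tested. The call of ABCE1 was lost without Rho0 replicate 2 (adjusted p = 0.0514), Eahy replicate 1 (0.0570), Eahy replicate 2 (0.0819) or Eahy replicate 4 (0.0717). ABCG1, the cholesterol exporter related to ABCG2, had 13.2 ± 1.61 CPM in Rho0 and 20.1 ± 1.78 CPM in Eahy (a log2 change of -0.61, SE 0.11, edgeR adjusted p = 0.000616). With library size alone the sign of ABCB9 (0.065) and ABCE1 (0.019) turned, and ABCG1 (-0.22) was no longer called.

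**Figure D4:**
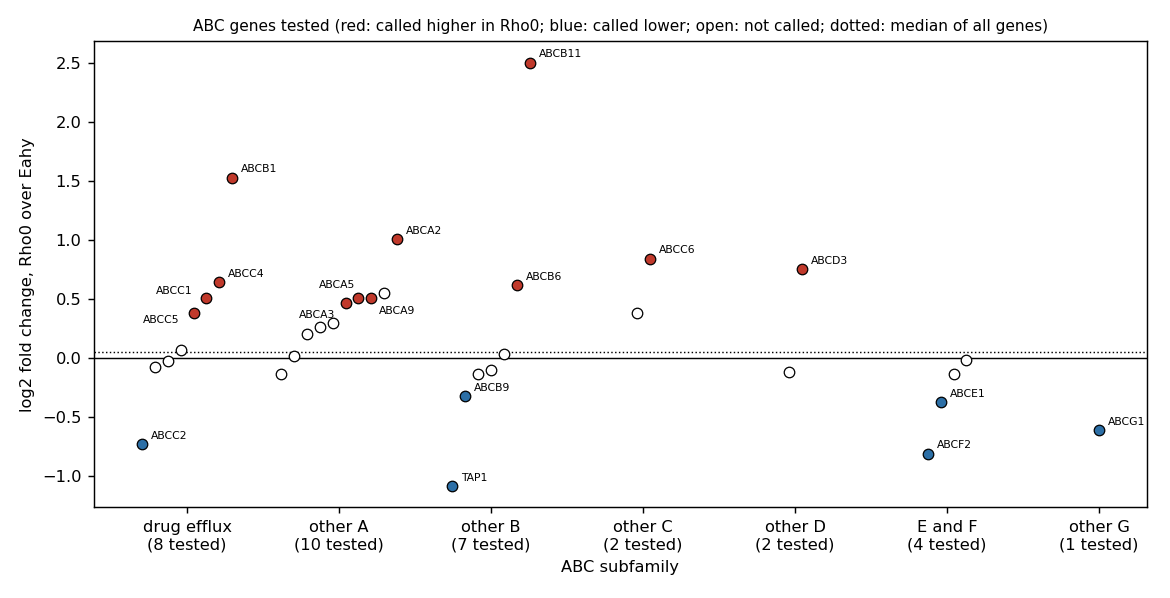
Log2 fold change (Rho0 over Eahy, vertical axis) of each listed ABC gene tested, by subfamily: red where higher in Rho0, blue where lower, open where not called, with the median of all genes dotted. Calls run in both directions, with ABCB1 second to ABCB11, which is under 1 CPM in both lines.

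Regulators known to control these exporters differed in both directions. Of 23 listed, 17 were tested, 6 were higher and 7 lower; with library size alone 8 were higher and 1 lower. NR3C1, the glucocorticoid receptor, averaged 66.6 ± 15.2 CPM in Rho0 and 25.9 ± 1.06 CPM in Eahy (SD, n = 4 each; a log2 change of 1.37, SE 0.14, edgeR adjusted p = 1.6e-05). NFE2L2, which encodes the oxidative stress factor NRF2, averaged 55.0 ± 9.80 CPM in Rho0 and 30.8 ± 2.81 CPM in Eahy (a log2 change of 0.84, SE 0.13, edgeR adjusted p = 0.000255). AHR, the aryl hydrocarbon receptor that binds xenobiotics, averaged 21.9 ± 5.35 CPM in Rho0 and 56.6 ± 4.71 CPM in Eahy (a log2 change of -1.37, SE 0.15, edgeR adjusted p = 2.8e-05). VDR, the vitamin D receptor, had a log2 fold change of -0.56 with TMM and -0.16, not called, with library size alone. NR1I2 and NR1I3, the drug-sensing receptors PXR and CAR, named after their values were seen, were too low to test, at 0.0444 and 0.334 CPM in Rho0 and 0 and 0.231 CPM in Eahy.

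Of 6 scaffold proteins that hold exporters at the membrane, 2 were lower and 0 higher, beside 25.4% and 29% of all genes (edgeR; with library size alone 0 were lower and 1 higher; 0 higher at an unadjusted p of 0.05, by DESeq2 or by limma). The lower count is near the share over all genes. NHERF1, a PDZ adaptor, had a log2 fold change of -0.45 (-0.055, not called, with library size alone). MSN, moesin, had -0.36 (edgeR adjusted p = 0.0338), turned to 0.036 with library size alone, and lost its call without Rho0 replicate 3 (adjusted p = 0.0662), Eahy replicate 1 (0.0636), Eahy replicate 2 (0.0504) or Eahy replicate 3 (0.0814).

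The enzymes that make the conjugates carried by the ABCC exporters were mixed. Of 18 glutathione S-transferases matched, 14 were tested, 5 were higher and 4 lower (8 and 1 with library size alone). With TMM the 18 summed to 485 to 661 CPM in Rho0 and 689 to 777 CPM in Eahy. GSTP1, the most abundant of them, was named after its values were seen. It averaged 236 ± 50.9 CPM in Rho0 and 367 ± 26.8 CPM in Eahy (SD, n = 4 each, a log2 change of -0.64, SE 0.14, edgeR adjusted p = 0.00274). GSTA4, which conjugates products of lipid peroxidation, averaged 8.99 ± 0.873 CPM in Rho0 and 3.65 ± 0.644 CPM in Eahy (SD, n = 4 each; a log2 change of 1.30, SE 0.14, edgeR adjusted p = 2.0e-05). MGST2, a microsomal member that can make leukotriene C4, averaged 25.3 ± 2.21 CPM in Rho0 and 55.3 ± 1.10 CPM in Eahy (a log2 change of -1.13, SE 0.08, edgeR adjusted p = 7.5e-07). GSTM4 (1.18) and GSTT2 (1.603) were higher, the second with the near-identical copy GSTT2B and hence uncertain. Of 20 UDP-glucuronosyltransferases, 2 were tested and none was called (edgeR; 1 was called higher with library size alone), UGT1A1 at an adjusted p of 0.525 and UGT8 at 0.134; 0 passed an unadjusted p of 0.05, and 0 were called by DESeq2 or by limma. Of 12 sulfotransferases, 8 were tested, 3 were higher and 2 lower (6 and 0 with library size alone). SULT1B1, which acts on phenols and thyroid hormones, averaged 27.3 ± 6.02 CPM in Rho0 and 6.80 ± 1.33 CPM in Eahy (a log2 change of 2.01, SE 0.18, edgeR adjusted p = 5.2e-06). SULT4A1 had a log2 fold change of 1.16, SULT1A1 of -0.48 and SULT1A4, near-identical to SULT1A3 and so uncertain, of -0.57; the last pair were not called with library size alone.

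Of 26 genes of cytochrome P450 drug oxidation, 11 were tested, 3 were higher and 2 lower (5 and 1 with library size alone). CYP2U1, a fatty acid hydroxylase, averaged 2.98 ± 0.175 CPM in Rho0 and 0.247 ± 0.0729 CPM in Eahy (SD, n = 4 each; a log2 change of 3.55, SE 0.21, edgeR adjusted p = 2.7e-07). CYP1A1, a classic AHR target, had a log2 fold change of 0.67, CYP2S1 -1.30 and POR, the electron donor of these enzymes, -0.45 (-0.066, not called, with library size alone).

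In a list of exporters outside the ABC family, 6 of 6 genes tested were called, 4 higher and 2 lower. That stands beside 29% and 25.4% of all genes, and with library size alone 4 were higher and 0 lower. Among the lower genes is MVP, a vault protein that is not itself a membrane transporter. SLC47A1, the cation exporter MATE1, averaged 14.2 ± 1.35 CPM in Rho0 and 8.25 ± 1.13 CPM in Eahy (SD, n = 4 each; a log2 change of 0.79, SE 0.12, edgeR adjusted p = 0.000276). ATP7A, a copper pump, had a log2 fold change of 0.67 with ranges that overlapped, and SLC22A18 had -0.70 (-0.32, not called, with library size alone). MVP, the major vault protein, had -0.28 (edgeR adjusted p = 0.049) with ranges that overlapped, and turned to 0.11, not called, with library size alone. Its call was also lost on leaving out Rho0 replicate 2, 3 or 4 or any Eahy library (adjusted p from 0.0634 to 0.126), with log2 fold changes of -0.32 to -0.20. Of 30 uptake carriers, which bring drugs in, 18 were tested, 7 were higher and 8 lower (9 and 4 with library size alone). SLCO3A1, an organic anion carrier, averaged 6.28 ± 1.14 CPM in Rho0 and 0.672 ± 0.186 CPM in Eahy (a log2 change of 3.21, SE 0.21, edgeR adjusted p = 5.3e-07). SLC29A4 (1.63) and SLC22A3 (1.53), carriers of organic cations, were higher, and SLCO2B1 (-2.73) was lower, at 0.176 ± 0.187 CPM in Rho0 and 1.48 ± 0.291 CPM in Eahy.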

How the data were processed

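Poly-A RNA was sequenced from 4 Rho0 and 4 Eahy libraries made with a strand-specific kit, per the labels' protocols. The authors deposited estimated counts for 38010 gene IDs and a log2 table of 12885 genes. Per the submitters' processing notes, kallisto, limma, edgeR and the build GRCh38 were used, with no version or role stated. Of 97854 values compared (counts of at least 20), 97.7% of the deposited log2 values equalled log2 of the scaled counts plus 1, within a relative tolerance of 0.001. No column belonged to a sample outside the 8.

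After rounding, the counts went into the quasi-likelihood F-test of edgeR 4.0.16 (under R 4.3.3), with TMM factors, a filterByExpr minimum count of 10 and the line as the single term. Benjamini-Hochberg adjustment ran over 15184 genes, with calls at an adjusted p of 0.05. SE is the size of the log2 fold change divided by the square root of F. CPM used TMM-scaled library sizes, and 1 count was worth 0.0269 to 0.0853 CPM. The fit was tested on simulated data. Among 12 replicate pairs, chi-square per degree of freedom was at least 4.21, so no library was counted as a copy.

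The members and lists (215 of 216 genes matched) were chosen with earlier results of these data known; a few genes are not reported here. Named genes are the 8 members and, of each other list, up to 4 called genes with the largest change and at least 1 CPM in the higher line, plus the 3 genes most like ABCB1 and ABCC2 among those with at least 5 CPM. The 18 alternatives covered DESeq2 1.42.0, limma 3.58.1 (voom, and trend on the log2 table), other scalings and filters, leaving out single libraries and a replicate block. Tables and figures used Python 3.11.15, pandas 2.3.3, numpy 2.4.6 and matplotlib 3.10.9.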

Additional observations from a re-analysis of the deposited data

Results flagged for a closer look

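No member was flagged. Of 108 groups of 4 libraries examined (the 8 members and 46 named list genes in both lines), 5 had a library far from the other 3, and chance flags about 1 group in 20. In Rho0 replicate 3, VDR was at 1.885 CPM, against 2.719 to 2.785 CPM in the other Rho0 libraries. In Rho0 replicate 4, MSN was at 2079 CPM, against 2515 to 2594 CPM. Rho0 replicate 1 stood apart in SLC22A18, at 4.345 CPM against 2.68 to 2.914 CPM. Eahy replicate 3 stood apart in ESAM, at 458.2 CPM against 392.9 to 403.2 CPM in the other Eahy libraries, and in KRT18, at 991.4 CPM against 858.8 to 877.8 CPM.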

How the results depend on the processing

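ABCB1, ABCC1, ABCC4 and ABCC5 stayed higher and ABCC2 lower, all called, in each of the 18 alternatives, with log2 fold changes of 1.33 to 1.92, 0.43 to 0.90, 0.52 to 1.04, 0.32 to 0.78 and -0.80 to -0.34 in that order. With library size alone 8572 genes were called higher and 1540 lower, ABCC3 (0.46) and ABCC10 (0.36) were called higher, and ABCG2 turned to 0.32; ABCB9 (0.065), ABCE1 (0.019), MSN (0.036) and MVP (0.11) also turned. With the library size of nuclear genes alone, chosen after seeing the data, ABCC10 was at 0.069 and ABCG2 at 0.025, neither called. In that setting 5246 genes were called higher and 3129 lower, and ABCB9 (edgeR adjusted p = 0.0502), ABCE1 (0.1525) and MVP (0.0830) lost their calls. With no filter on low counts MSN (edgeR adjusted p = 0.0573) and MVP (0.0809) also lost theirs. MVP lost its call too with a filter of at least 50 counts in 4 libraries (edgeR adjusted p = 0.0546). Leaving out each library gave 3774 to 4590 genes higher and 3415 to 4391 lower, and -0.096 to 0.0017 for ABCC10. Of the named list genes' values under the alternatives, 780 kept their direction and call, 37 lost the call and 4 turned. Same-numbered libraries of the 2 lines did not deviate together (correlations from -0.13 to 0.16, and only replicate 4 correlated best with its own number). The fit with the replicate block called 4215 genes higher and 3802 lower and changed no member's call. The depth of Rho0 replicate 2 limits the precision of the low members, of which ABCC2 had 71.9 counts there.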
